A study of Homo sapiens with 12 samples.

Results

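The 43 genes described here encode the machinery that copies chromosomal DNA: the origin recognition complex, the licensing factors, the replicative helicase and its activators, the polymerases, the sliding clamp with its loader, the single-strand binding complex, the enzymes that finish the lagging strand, and 2 enzymes of nucleotide supply. They were listed by gene symbol, with no threshold on a measured value but with earlier results of these data known, and all 43 were found among the 28278 genes of the deposited table of counts and among the 15805 genes with enough counts to be tested. K562, an established human erythroleukaemia line that makes haemoglobin when induced, was studied unedited (WT) and with HRG1 knocked out (HRG1-KO). HRG1, the protein of the gene SLC48A1, is a transmembrane haem transporter. Untreated cells received no compound, and treated cells received 0.75 mM sodium butyrate, an inhibitor of histone deacetylases, 24 h after plating and again 48 h later; collection followed the second dose by 6 h, and the series' design text places the samples at day 8 of differentiation. All 4 groups grew in RPMI with 10% heat-inactivated serum, and each is represented by 3 libraries of total RNA. The labels name neither the way HRG1 was disrupted nor whether HRG1-KO cells are 1 clone or a pool, and they do not state that replicates came from separate cultures, so p-values measure the spread between these libraries, which may be partly technical.

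Replication starts where the origin recognition complex (ORC) sits on DNA. In G1 phase CDC6 and CDT1 load onto it the ring-shaped MCM2-7 helicase, a step that geminin (GMNN) blocks later in the cycle, and in S phase CDC45 and the GINS complex turn the loaded ring into an active helicase. Polymerase alpha and its primase lay primers, polymerases epsilon and delta extend them while held on DNA by the clamp PCNA, and many of these genes are known targets of E2F transcription factors, which raise them around the start of S phase. Dividing leukaemia cells such as K562 express them strongly, and growth arrest lowers them.

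Libraries held 19963594 to 30348538 counts, and the 43 genes together took 0.428% to 0.663% of them. The smallest count of any of them in any library was 320, for POLD3, so none was near the limit of detection. SLC48A1 itself had 1357 to 1945 counts in the 6 WT libraries and 55 to 313 in the 6 HRG1-KO libraries, lower in every HRG1-KO library. Each of the 12 erythroid and K562 markers examined was above 3 counts in at least 1 library of each group. Their summed level differed between groups: 8494 to 18530 CPM (counts per 1000000 counts) in untreated WT, 26770 to 64540 in treated WT, 4104 to 7075 in untreated HRG1-KO and 4976 to 7763 in treated HRG1-KO. Markers of other cell types were not all absent, and some of their sums also differed between groups. The 6 megakaryocyte markers summed to 33.1 to 60.2 CPM in untreated WT, 117 to 227 in treated WT, 15.1 to 55.3 in untreated HRG1-KO and 80.6 to 118 in treated HRG1-KO, with 2 to 3 of 6 at or below 3 counts in a group and PF4 at 0 in every one. The 7 markers of monocytes or granulocytes summed to 14.6 to 20 CPM in untreated WT, 21.1 to 32.7 in treated WT, 21.9 to 86.9 in untreated HRG1-KO and 63.1 to 132 in treated HRG1-KO, with 1 to 3 of 7 at or below 3 counts and S100A8 at 0 throughout. The 5 fibroblast markers summed to 2.38 to 5.04 CPM in untreated WT, 43.9 to 109 in treated WT, 2.19 to 5.01 in untreated HRG1-KO and 67.9 to 154 in treated HRG1-KO, with 1 to 3 of 5 at or below 3 counts and LUM at 0 throughout. The 5 epithelial markers summed to 289.8 to 352 CPM in untreated WT, 284 to 396 in treated WT, 168 to 204 in untreated HRG1-KO and 139.9 to 194 in treated HRG1-KO, with 1 to 3 of 5 at or below 3 counts and KRT5 at 0 throughout, and the 6 lymphocyte markers to 15.7 to 23.2 CPM in untreated WT, 14 to 27.1 in treated WT, 5.14 to 6.33 in untreated HRG1-KO and 11.2 to 13.8 in treated HRG1-KO, with 1 to 2 of 6 at or below 3 counts and MS4A1 at 0 throughout. The part of these differences in the results below was not tested.

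Levels per length placed helicase genes at the top of the 43. Per kilobase of merged exons (GENCODE 29, GRCh38), the highest mean in untreated WT was that of MCM7, a subunit of the MCM2-7 ring, at 149 ± 14.4 CPM per kb (SD, n = 3). CDC45 followed at 142 ± 28.8, the thymidine kinase TK1 at 101 ± 15.5, CDT1 at 85.6 ± 28.2 and MCM3 at 84.7 ± 16.5. MCM7 and CDC45 differed by less than the SD of either, as did CDT1 and MCM3. GINS3 was lowest at 4.81 ± 0.688, below ORC4 at 5.29 ± 0.244. In untreated HRG1-KO, MCM7 stood 5th at 78.3 CPM per kb and CDC45 first at 126. ORC5 moved from the 30th place in untreated WT (14.3 CPM per kb) to the 43rd in untreated HRG1-KO (6.25), and RFC3 from the 22nd (21.4) to the 12th (47.3). Merged exons take in every annotated exon, expressed or not, so the per-length levels and their ranks depend on the annotation. Within MCM2-7 in untreated WT the per-length means ran from 27.5 for MCM5 to 149 for MCM7, over merged lengths of 7338 and 4386 bases. Without division by length these 2 means were 202 and 655 CPM.

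What the promoters of these genes share is shown next, since E2F and NF-Y (which binds CCAAT) are the factors best known at replication genes. RefSeq promoters (GRCh38.p14) were available for 37 of the 43 genes, 48 promoters in all, and were searched over the 250 bases before the start on both strands. At least 1 of the 8-letter E2F words TTTCCCGC, TTTGGCGC, TTTCGCGC and TTTGCCGC lay in 13 of the 48 promoters, 27.1%, against 2.79% of all 35116 promoters of the same length. Among the 16667 promoters of genes tested here the share was 4.04%. The 7-letter forms, which the 8-letter words contain, lay in 41.7% against 10.9% of all and 15.5% of tested genes' promoters. CCAAT lay in 58.3% against 32.0% and 32.8%. TTTGAA or TTCGAA, letters of the CHR element known from mitotic genes, lay in 2.08% of these promoters against 14.3% of all and 10.6% of tested genes' promoters. The following stretches lie upstream of the start outside GENCODE exons, 5′ to 3′ on the gene's strand, with matches to the 8-letter E2F words and to CCAAT, on either strand, in capitals. The first 4 stretches hold both kinds of word and the last 2 hold neither. RFC2 and ORC5 were lower in HRG1-KO cells, and so, in treated cells, was MCM7, for which the search found 2 matches to the 8-letter E2F words and 4 to CCAAT.
MCM6, chr2:135876444-135876563, minus strand: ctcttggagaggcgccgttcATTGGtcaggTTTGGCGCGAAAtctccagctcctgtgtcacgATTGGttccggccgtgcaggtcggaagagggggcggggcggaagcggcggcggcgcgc
GMNN, chr6:24775293-24775412, plus strand: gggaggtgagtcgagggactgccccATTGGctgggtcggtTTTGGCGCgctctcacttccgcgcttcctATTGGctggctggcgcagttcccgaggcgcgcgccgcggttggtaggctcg
PCNA, chr20:5126627-5126746, minus strand: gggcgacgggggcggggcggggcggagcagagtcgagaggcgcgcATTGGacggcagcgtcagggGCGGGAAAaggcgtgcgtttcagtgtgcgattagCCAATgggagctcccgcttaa
MCM3, chr6:52284882-52284992, minus strand: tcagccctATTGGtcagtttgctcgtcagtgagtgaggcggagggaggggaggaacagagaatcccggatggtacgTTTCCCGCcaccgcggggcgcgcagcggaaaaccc
RFC2, chr7:74254459-74254578, minus strand: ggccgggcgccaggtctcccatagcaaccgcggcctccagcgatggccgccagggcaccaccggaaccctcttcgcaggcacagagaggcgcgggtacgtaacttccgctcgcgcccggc
ORC5, chr7:104208048-104208167, minus strand: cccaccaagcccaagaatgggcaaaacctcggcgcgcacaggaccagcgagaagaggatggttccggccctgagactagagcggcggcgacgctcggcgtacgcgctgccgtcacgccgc
In MCM6, GMNN and PCNA an E2F word lies between 2 CCAAT matches, and in MCM6 the matches TTTGGCGC and, on the other strand, TTTCGCGC overlap. A match is a string of letters and does not show that a factor binds there.

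Butyrate did not change any of the 43 genes at an adjusted p under 0.05 in either genotype (edgeR quasi-likelihood test, Benjamini-Hochberg over all genes tested). In WT, 0 of 43 passed while 2.35% of all genes did, and in HRG1-KO 0 of 43 passed while 3.4% did. At an unadjusted p under 0.05 there were 5 of 43 in WT (11.6%, against 18% of all genes) and 7 of 43 in HRG1-KO (16.3%, against 19.8%). DESeq2 called 1, TK1, in WT and 0 in HRG1-KO. Over all genes the 8 alternative fits, DESeq2 among them, called 63 to 1884 in WT and 304 to 2164 in HRG1-KO. The treated and untreated libraries did not overlap in 8 of 43 genes in WT (21.7% of all genes) and in 8 of 43 in HRG1-KO (24.4%). Most estimates were nevertheless slightly below 0: 35 of 43 in WT, where 47.5% of all genes were, and 38 of 43 in HRG1-KO, where 49.3% were. The median log2 difference was -0.17 in WT and -0.25 in HRG1-KO, beside medians of 0.02 and 0 over all genes tested. In bulk RNA, fewer cells in S phase and less of these RNAs per cell cannot be told apart.

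These shifts were no larger than the spread between libraries of one group. Relative to each gene's mean over the 12 libraries, the median of the 43 genes was 0.38, 0.12 and -0.22 on the log2 scale in replicates 1, 2 and 3 of untreated HRG1-KO, and -0.03, 0.00 and -0.32 in treated HRG1-KO. In WT it was 0.17, 0.02 and -0.02 untreated, and 0.04, -0.17 and -0.12 treated. Replicate 1 of untreated HRG1-KO was thus the highest library, with 38 of 43 genes above their own mean, and replicate 3 of treated HRG1-KO the lowest, with 9 of 43. Within pairs of equal replicate number the median butyrate difference was -0.16, -0.31 and -0.18 in WT and -0.42, -0.25 and -0.05 in HRG1-KO. Without replicate 1 of untreated HRG1-KO the median in HRG1-KO was -0.04 and 26 of 43 genes were below 0. That was the end nearest 0 of the 6 fits with 1 library left out, and the other end was -0.40, without replicate 3 of untreated HRG1-KO. In WT the 6 such fits gave medians of -0.24 to -0.14. Scaling by library size alone left 27 of 43 below 0 in HRG1-KO, with a median of -0.12, and moved the median of all genes there from 0 to 0.12.

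**Figure D1:**
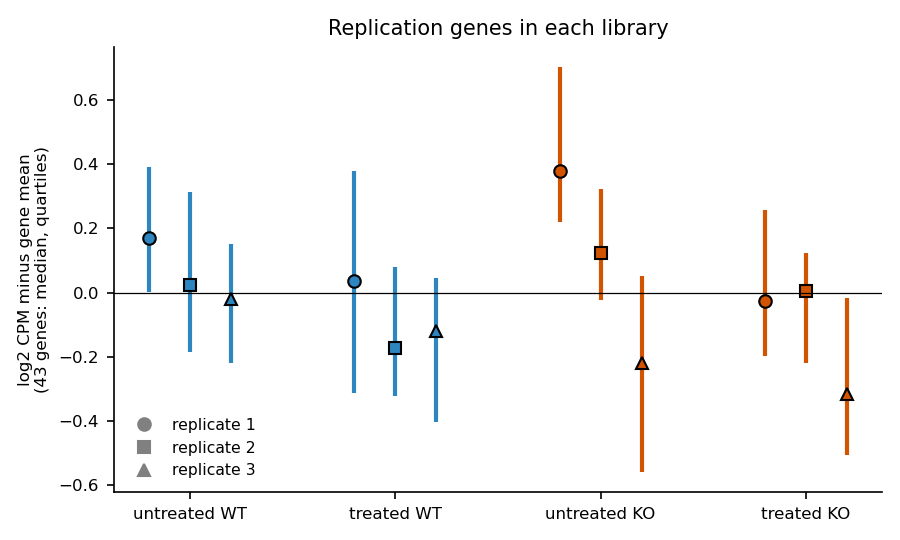
Median (point) and quartiles (line) over the 43 replication genes of log2 CPM minus each gene's mean over 12 libraries, for each library by group and replicate (circle, square and triangle for replicates 1, 2 and 3). Untreated HRG1-KO spans 0.38 to -0.22 between its 3 libraries, and in both HRG1-KO groups replicate 3 is lowest.

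By role, the medians of the butyrate differences ran from -0.41 for polymerases delta and epsilon to 0.39 for the 2 genes of nucleotide supply in WT, and from -0.43 to 0.27 for the same roles in HRG1-KO. The 6 ORC genes had medians of -0.31 in WT and -0.33 in HRG1-KO, with ORC4 the one estimate above 0 in WT (0.29, SE 0.16). Licensing factors were near 0 in WT and slightly below it in HRG1-KO: CDC6 at -0.06 and -0.19, CDT1 at 0.10 and -0.18, GMNN at 0.01 and -0.06 in WT and HRG1-KO. The helicase activators had medians of -0.16 and -0.18, polymerase alpha with primase -0.08 and -0.18, the clamp with its loader -0.24 and -0.25, and RPA -0.09 and -0.14. POLE2, the accessory subunit of polymerase epsilon, stood at 37.4, 29 and 31.1 CPM in untreated WT, 20.7, 22.7 and 18.4 in treated WT, 59.5, 36.4 and 36.3 in untreated HRG1-KO and 35.3, 25.9 and 23.5 in treated HRG1-KO. Its treated libraries were below the untreated ones in both genotypes, without overlap. The log2 difference was -0.66 in WT (SE 0.25; edgeR adjusted p = 0.181) and -0.64 in HRG1-KO (SE 0.25; adjusted p = 0.167), and with the replicate number as a block the HRG1-KO value passed, at an edgeR adjusted p of 0.0492.

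TK1, which salvages thymidine, and MCM3, a helicase subunit, had estimates on the other side. TK1 stood at 211, 196 and 155 CPM in untreated WT, 293, 357 and 346 in treated WT, 168, 111 and 102 in untreated HRG1-KO and 187, 159 and 200.4 in treated HRG1-KO. All 3 treated WT libraries were above all 3 untreated ones, whereas the HRG1-KO groups overlapped. Its log2 difference was 0.82 in WT (95% interval 0.35 to 1.29; edgeR adjusted p = 0.0709), past the threshold with the replicate block (0.84, adjusted p = 0.0249), and 0.52 in HRG1-KO (edgeR adjusted p = 0.199). MCM3 stood at 378, 281 and 269 CPM in untreated WT, 574, 378 and 333 in treated WT, 592, 430.4 and 282 in untreated HRG1-KO and 923, 712 and 429.8 in treated HRG1-KO. Treated libraries lay above untreated ones of the same number in both genotypes, but the groups overlapped. Its log2 difference was 0.47 in WT and 0.66 in HRG1-KO (edgeR adjusted p = 0.507 and 0.296), and 0.66 with an adjusted p of 0.0275 in HRG1-KO under the block. RRM2, the ribonucleotide reductase subunit that is limiting for deoxynucleotide synthesis, was at -0.05 and 0.02 with SEs of 0.43 and 0.43, the widest errors of the 43.

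With the replicate block, 1 of 43 genes was called in WT (TK1, higher; 8.61% of all genes, 5.47% as higher) and 3 in HRG1-KO (MCM3 higher, POLE2 and RFC3 lower; 11.7% of all genes, 7.8% as higher and 3.92% as lower). RFC3, a clamp loader subunit, had a log2 difference of -0.69 there with an edgeR adjusted p of 0.0242. The test of whether the butyrate response differed between genotypes called 0 of 43 genes and 0% of all genes (edgeR; 0 of 43 and 4.16% of all genes at an unadjusted p under 0.05), with DESeq2 and the block also at 0 of 43 (with the block, 0.019% of all genes). The widest estimate of that difference was -0.57 (95% interval -1.29 to 0.15) for PRIM1, the catalytic primase subunit. PRIM1 stood at 56.4, 104 and 69.2 CPM in untreated WT, 64.4, 74.4 and 79 in treated WT, 83.5, 91.3 and 61.3 in untreated HRG1-KO and 56.1, 45.8 and 49.1 in treated HRG1-KO, so that the treated HRG1-KO libraries were below all 9 others. The 13 genes with an 8-letter E2F word in the promoter had median butyrate differences of -0.09 in WT and -0.33 in HRG1-KO, beside -0.17 and -0.24 for the 24 genes without. For HRG1-KO against WT, the medians of these 13 and 24 genes were 0.09 and 0.00 untreated, and -0.01 and 0.03 treated.

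**Figure D2:**
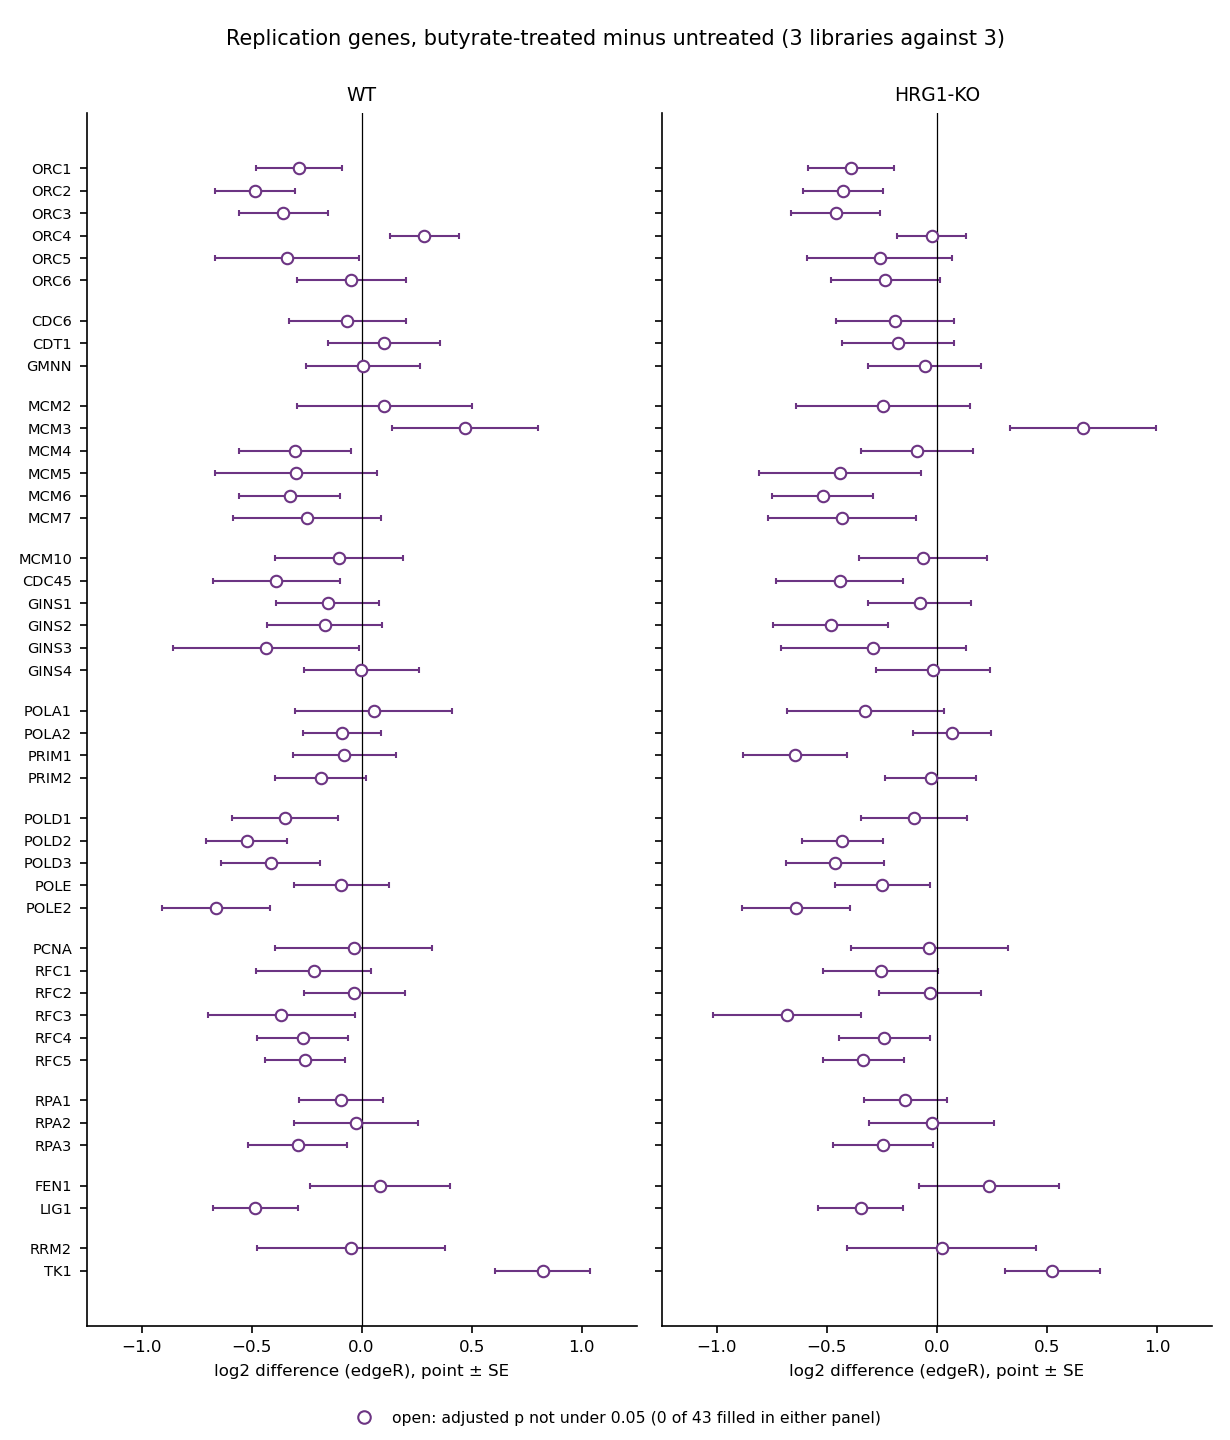
Log2 difference, butyrate-treated minus untreated, for each of the 43 genes by role, in WT (left) and HRG1-KO (right); points are edgeR estimates from 3 libraries against 3 and bars are ± SE. Most points lie a little left of 0, TK1 and MCM3 lie to the right, and open symbols mark that 0 of 43 passed the threshold in either panel.

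HRG1-KO cells differed from WT cells in a few replication genes. Calls in both directions within a complex were found in untreated cells for ORC and for the clamp loader, and all calls in treated cells were lower. In untreated cells 6 of 43 genes passed (14%, beside 22.6% of all genes): ORC5, POLD2, RFC2 and RPA3 were lower (10.9% of all genes), and ORC6 and RFC3 were higher (11.7%). In treated cells 5 of 43 passed (11.6%, beside 19% of all genes), and ORC5, MCM7, RFC2, RPA3 and TK1 were all lower (8.89% of all genes, with 10.1% higher). At an unadjusted p under 0.05 there were 13 of 43 untreated (34.6% of all genes) and 12 of 43 treated (31.6%). The genotypes did not overlap in 13 of 43 genes untreated and 13 treated, beside 42.3% and 33.9% of all genes. The share called was thus below that of all genes in both settings, and the median log2 difference of the 43 was 0.04 untreated and 0.02 treated. With the replicate block, 13 of 43 passed in untreated cells (33% of all genes, 16.9% as higher and 16.1% as lower), adding GMNN, GINS1 and PCNA among the higher and MCM4, MCM7, LIG1 and TK1 among the lower. In treated cells 12 passed with the block (29.2% of all genes, 15.6% as higher and 13.6% as lower), adding ORC6, GMNN, MCM3, GINS1, PCNA, RFC3 and RFC4, all higher.

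**Figure D3:**
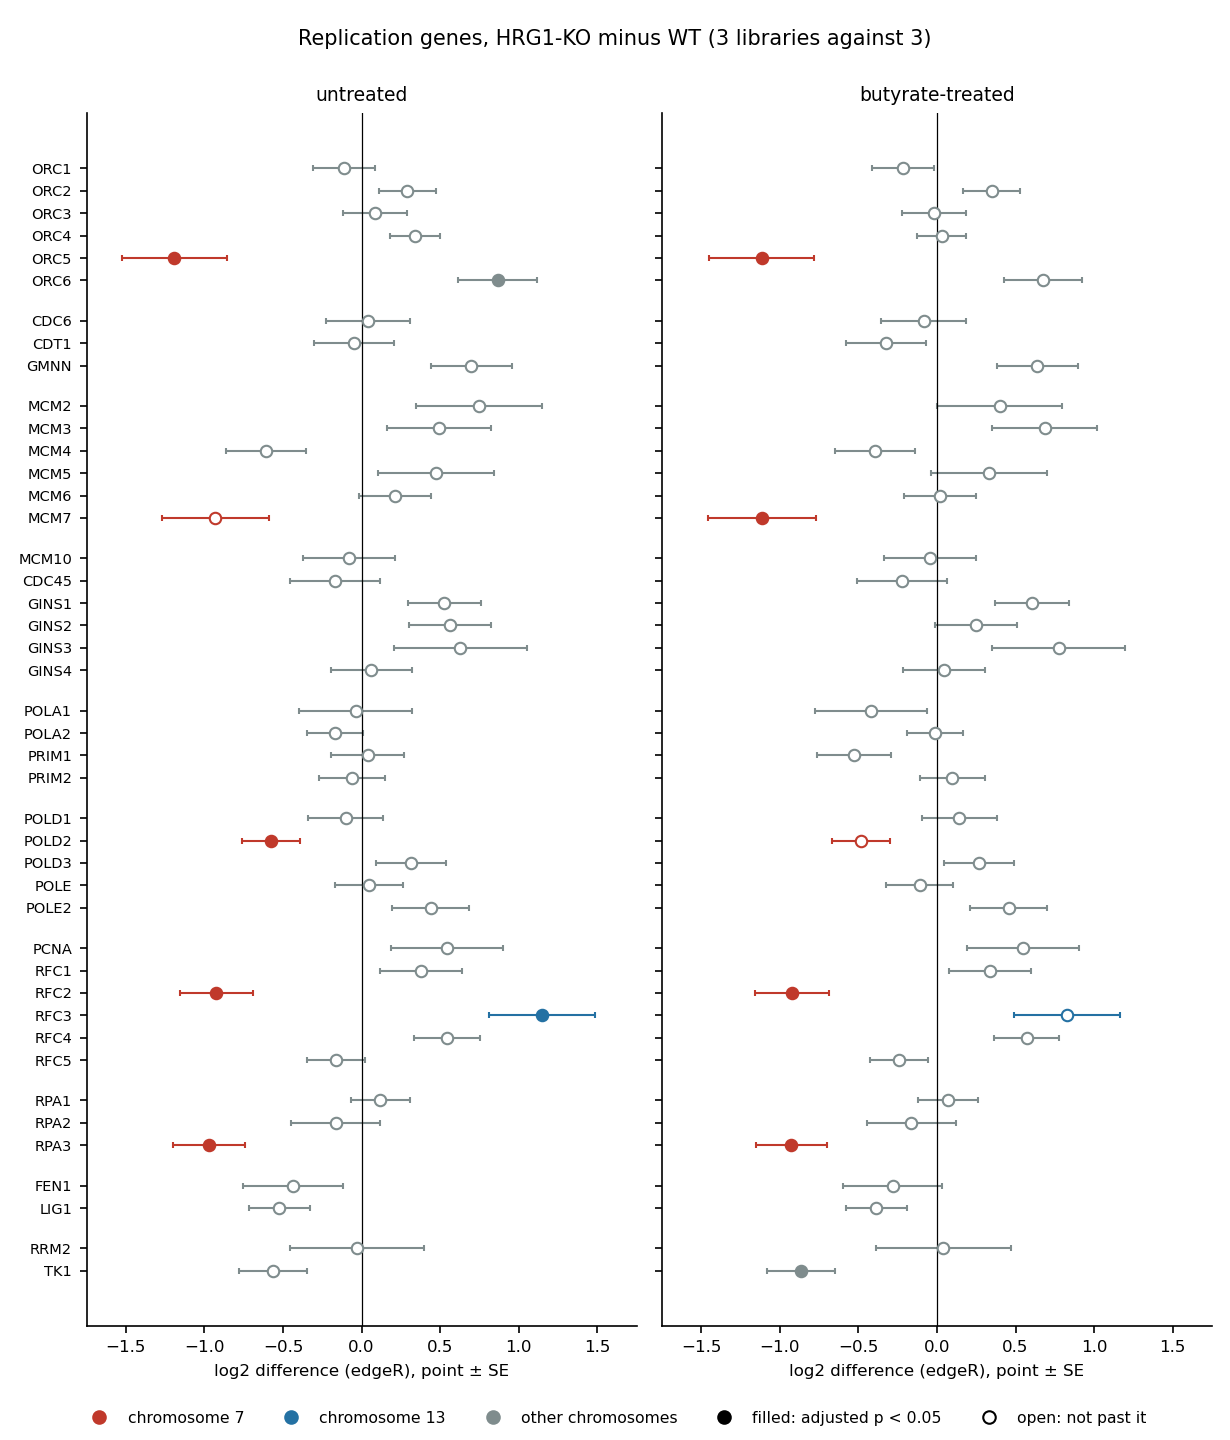
Log2 difference, HRG1-KO minus WT, for each of the 43 genes by role, untreated (left) and butyrate-treated (right); points are edgeR estimates from 3 libraries against 3, bars are ± SE, and filled points passed an adjusted p of 0.05. The 5 genes on chromosome 7 (red) lie left of 0 in both panels, and RFC3 on chromosome 13 (blue) lies to the right.

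Among the ORC genes, ORC5 and ORC6 passed in opposite directions in untreated cells. ORC5, an ATPase-fold subunit of the complex, stood at 58.2, 53.2 and 48.1 CPM in untreated WT, 62.7, 33.4 and 30.1 in treated WT, 28.3, 23.3 and 18.2 in untreated HRG1-KO and 28.1, 17.6 and 12.6 in treated HRG1-KO (replicates 1, 2 and 3 in this order, as in all such lists here). Every HRG1-KO library was below every WT library. The log2 difference was -1.19 (SE 0.33; edgeR adjusted p = 0.0217) untreated and -1.11 (SE 0.33; adjusted p = 0.0336) treated, or 43.7% and 46.2% of WT. ORC6, the subunit that is least tightly bound to the others, stood at 51.8, 56.3 and 37.8 CPM in untreated WT, 46.4, 49.2 and 45.5 in treated WT, 106, 104 and 55.8 in untreated HRG1-KO and 88.1, 72.2 and 65.5 in treated HRG1-KO. The 3 treated HRG1-KO libraries were above all WT libraries, while replicate 3 of untreated HRG1-KO fell within the untreated WT range. Its log2 difference was 0.86 untreated (SE 0.25; edgeR adjusted p = 0.0247) and 0.68 treated (adjusted p = 0.0769; 0.0189 with the block). ORC1 to ORC4 had estimates between -0.22 and 0.35, none past the threshold.

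The licensing factors CDC6 and CDT1 gave estimates of 0.04 and -0.05 untreated and -0.09 and -0.32 treated. Their inhibitor GMNN stood at 99.8, 60.6 and 83.5 CPM in untreated WT, 103, 72.6 and 68.9 in treated WT, 175, 109.7 and 111 in untreated HRG1-KO and 153, 121 and 108 in treated HRG1-KO. In both settings all HRG1-KO libraries were above all WT libraries of the same treatment, with log2 differences of 0.70 and 0.64. Neither passed without the block (edgeR adjusted p = 0.0718 and 0.109), and both did with it (adjusted p = 0.00559 and 0.00850).

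In the MCM2-7 ring, MCM7 was the only subunit that passed, in treated cells. MCM7 stood at 715, 659.6 and 589 CPM in untreated WT, 877, 395 and 381 in treated WT, 471, 317 and 242 in untreated HRG1-KO and 325, 237 and 203 in treated HRG1-KO. Within each treatment the HRG1-KO libraries were below the WT libraries without overlap, although replicate 1 of treated WT was far above the other 2. The log2 difference was -0.93 untreated (SE 0.34; edgeR adjusted p = 0.0682, or 0.00216 with the block) and -1.11 treated (SE 0.34; adjusted p = 0.0378). Without that WT library the treated difference was -0.62 with an edgeR adjusted p of 0.124. MCM2, which carries a histone-binding tail, stood at 217, 201 and 202 CPM in untreated WT, 386, 141 and 139 in treated WT, 443, 359 and 239 in untreated HRG1-KO and 414, 277 and 186 in treated HRG1-KO. Untreated HRG1-KO was above untreated WT without overlap, and the log2 difference of 0.75 had an SE of 0.40 (edgeR adjusted p = 0.209). MCM3, MCM5 and MCM6 had estimates of 0.49, 0.47 and 0.21 untreated and 0.68, 0.33 and 0.02 treated, and MCM4 of -0.39 treated and, untreated, of -0.61 (edgeR adjusted p = 0.107; 0.0428 with the block).

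Of the helicase activators none passed. CDC45 was at -0.17 untreated and -0.22 treated, and MCM10, which helps the helicase to start, at -0.08 and -0.04. The 4 GINS estimates were above 0 in both settings, from 0.05 for GINS4 in treated cells to 0.77 for GINS3 in treated cells, whose SE was 0.42. GINS1 stood at 46.6, 30.3 and 37 CPM in untreated WT, 37.2, 34.7 and 30.4 in treated WT, 70.9, 48.9 and 44.3 in untreated HRG1-KO and 57.6, 56.6 and 41.1 in treated HRG1-KO. Only treated cells showed no overlap between the genotypes for this gene, and its adjusted p was 0.0435 untreated and 0.0249 treated in edgeR with the block, against 0.131 and 0.0955 without.

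The polymerases gave 1 call, in untreated cells. POLD2, the subunit that ties the catalytic subunit of polymerase delta to POLD3, stood at 224, 212 and 168 CPM in untreated WT, 153, 134 and 133 in treated WT, 153, 136 and 116 in untreated HRG1-KO and 84.1, 106 and 110.0 in treated HRG1-KO. HRG1-KO libraries were below WT libraries of the same treatment without overlap. The log2 difference was -0.58 untreated (SE 0.18; edgeR adjusted p = 0.0395) and -0.48 treated (SE 0.18; adjusted p = 0.0878). The catalytic subunits were close to 0 untreated: POLD1 at -0.10, POLE at 0.05 and POLA1 at -0.04. The accessory subunits POLD3 and POLE2 were at 0.31 and 0.44 untreated and 0.27 and 0.46 treated, none past the threshold. POLA2 was at -0.17 and -0.01, and PRIM2, the large primase subunit, at -0.06 and 0.10. PRIM1 was at 0.04 untreated and -0.53 treated (edgeR adjusted p = 0.143).

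The clamp loader held 2 subunits that passed in opposite directions in untreated cells. RFC2, a small subunit, stood at 116, 132 and 83.9 CPM in untreated WT, 112, 114 and 98.3 in treated WT, 72.4, 61.9 and 40.5 in untreated HRG1-KO and 60.4, 61 and 49.7 in treated HRG1-KO. Every HRG1-KO library was below every WT library. The log2 difference was -0.92 untreated (SE 0.23; edgeR adjusted p = 0.0128) and -0.92 treated (SE 0.23; adjusted p = 0.0153). RFC3, another small subunit, stood at 74.4, 56.9 and 52.8 CPM in untreated WT, 75, 35 and 33.2 in treated WT, 176, 132 and 99.4 in untreated HRG1-KO and 114, 73.3 and 66.7 in treated HRG1-KO. Untreated HRG1-KO was above untreated WT without overlap, and in treated cells replicate 1 of WT lay within the HRG1-KO range. Its log2 difference was 1.15 untreated (SE 0.34; edgeR adjusted p = 0.0278) and 0.83 treated (adjusted p = 0.109; 0.00243 with the block). RFC4 was at 0.54 and 0.57, RFC1, the large subunit, at 0.38 and 0.34, and RFC5 at -0.16 and -0.24. The clamp PCNA stood at 157, 81.5 and 93.3 CPM in untreated WT, 147, 99.9 and 76.3 in treated WT, 243, 132 and 108 in untreated HRG1-KO and 204, 147 and 122 in treated HRG1-KO. It was higher in HRG1-KO in each pair of equal number while the groups overlapped, with log2 differences of 0.54 and 0.54 (edgeR adjusted p = 0.313 and 0.334, or 0.0279 and 0.0192 with the block).

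RPA3, the smallest subunit of the single-strand binding complex, stood at 61.8, 69.8 and 56 CPM in untreated WT, 42.2, 54.2 and 57 in treated WT, 35.1, 26.1 and 34.6 in untreated HRG1-KO and 24.6, 21.1 and 35 in treated HRG1-KO. Again every HRG1-KO library was below every WT library. The log2 difference was -0.97 untreated (SE 0.23; edgeR adjusted p = 0.00846) and -0.93 treated (SE 0.23; adjusted p = 0.0130). RPA1 and RPA2 were at 0.12 and -0.17 untreated and at 0.07 and -0.16 treated. LIG1, which seals nicks between Okazaki fragments, was at -0.52 untreated (edgeR adjusted p = 0.0709; 0.0480 with the block), and FEN1, the flap nuclease that acts before it, at -0.43 (adjusted p = 0.367). TK1, whose levels are given above, was lower in treated HRG1-KO than in treated WT, with a log2 difference of -0.86 (SE 0.22; edgeR adjusted p = 0.0148), and had one of -0.57 untreated (adjusted p = 0.0801; 0.0428 with the block). RRM2 was at -0.03 and 0.04.

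**Figure D4:**
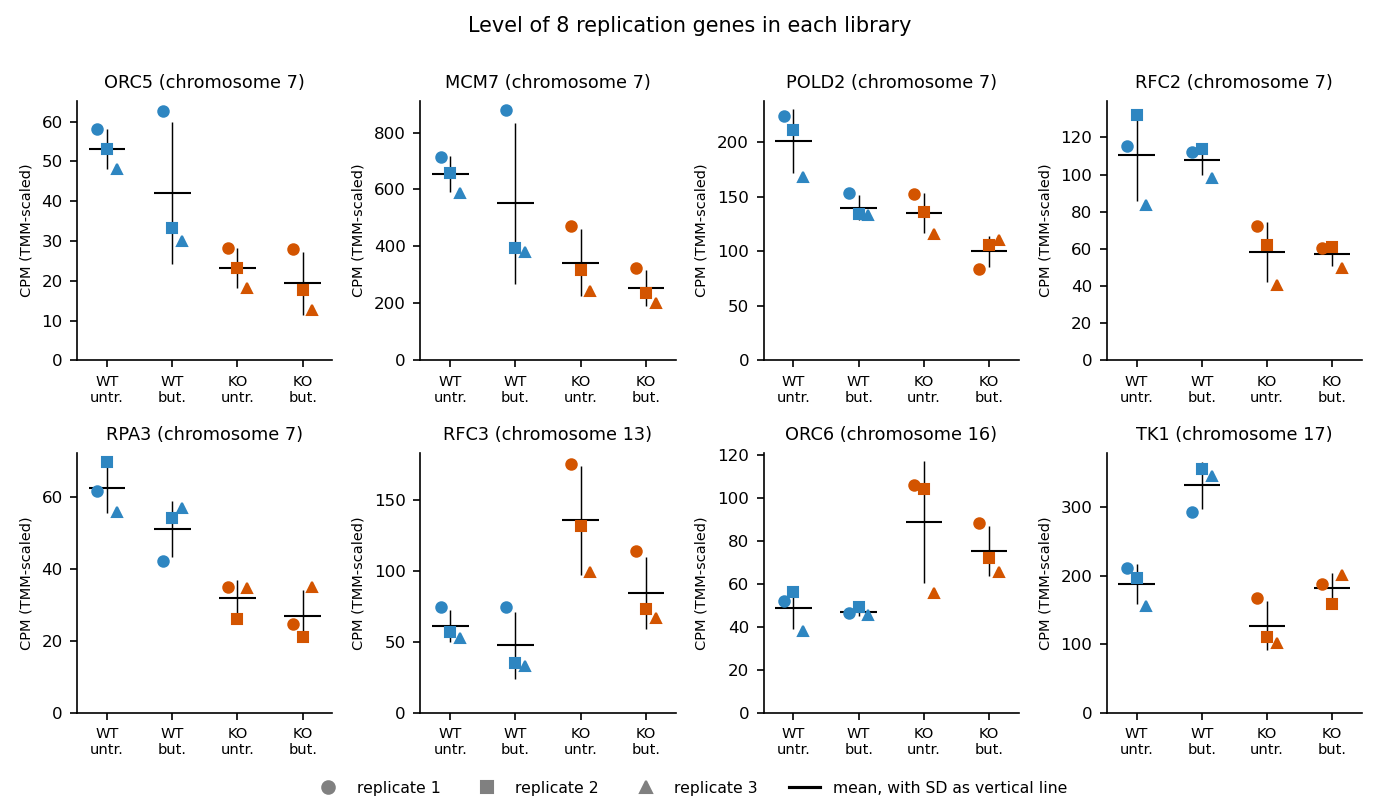
TMM-scaled CPM of 8 replication genes in each of the 12 libraries (circle, square and triangle for replicates 1, 2 and 3; WT blue, HRG1-KO orange), with the group mean as a horizontal line and the SD as a vertical line. ORC5, RFC2 and RPA3 are lower in all 6 HRG1-KO libraries than in all 6 WT libraries, and RFC3 and ORC6 have higher HRG1-KO means.

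Ratios between subunits of one complex within a library do not depend on how libraries are scaled. For 4 pairs picked after their values were seen they are given as ranges over the 6 WT and the 6 HRG1-KO libraries, with no test. RFC2 per RFC3 was 1.5 to 3.25 in WT and 0.408 to 0.832 in HRG1-KO libraries, a mean log2 difference of -1.94. MCM2 per MCM7 was 0.304 to 0.440 in WT and 0.916 to 1.28 in HRG1-KO, a difference of 1.61. ORC5 per ORC6 was 0.661 to 1.35 in WT and 0.192 to 0.327 in HRG1-KO, a difference of -1.91, and RPA1 per RPA3 was 1.38 to 2.54 and 2.94 to 5.70, a difference of 1.05. In each of these 4 ratios 1 member lies on chromosome 7, and the ranges of WT and HRG1-KO did not overlap. Since they were picked for their values among 59 pairs, neither trait is a result. RFC4 per RFC5, with no member on chromosome 7, did not overlap either (0.7494 to 1.142 in WT, 1.434 to 1.905 in HRG1-KO). MCM4 per MCM7, with 1 member there, did overlap (0.3531 to 0.7188 and 0.6344 to 1.15).

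Without the replicate block, the genes that passed as lower lie on chromosome 7, except TK1 in treated cells. With the block, MCM4 (chromosome 8), LIG1 (chromosome 19) and TK1 (chromosome 17) also passed as lower in untreated cells. In GRCh38 the 5 members there are RPA3 (chr7:7636518-7718607), POLD2 (chr7:44114681-44124358), RFC2 (chr7:74231499-74254458), MCM7 (chr7:100092728-100101940) and ORC5 (chr7:104126341-104208047), all on the minus strand. All 5 estimates were below 0 in both settings, and 4 of 5 passed in each. Over all 713 tested genes of chromosome 7 the median log2 difference was -0.78 untreated and -0.85 treated, the lowest of the 23 chromosomes compared, and 37.4% and 38.8% of its genes passed as lower. RFC3 (chr13:33818049-33966558) is the member on chromosome 13, where the median over 262 genes was 0.93 and 0.80, the highest of the 23, with 48.1% and 39.3% passing as higher. Of the 38 members elsewhere than chromosome 7, 2 were called higher and 0 lower in untreated cells, beside 12.5% and 9.66% of the 14096 tested genes placed elsewhere. In treated cells 0 were higher and 1 lower (TK1), beside 10.7% and 7.49%. With the block these 38 gave 5 higher (ORC6, GMNN, GINS1, PCNA and RFC3) and 3 lower untreated, and 7 higher and 1 lower treated. Over all genes of any chromosome the block gave 16.9% higher and 16.1% lower untreated, and 15.6% and 13.6% treated. Whether the shift of whole chromosomes accounts for the differences in these members was not tested.

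For each member the median log2 difference, HRG1-KO minus WT, of the 20 nearest tested genes on its chromosome, 10 on each side, was set beside its own. The 2 values had the same sign for 33 of 43 members untreated and 27 of 43 treated, and for 27 and 21 of the 37 off chromosomes 7 and 13. Neither these counts nor the correlations below were computed over all tested genes. They are therefore not shown to be particular to replication genes. RFC2 had -0.92 beside -0.97 for its neighbours in untreated cells, MCM7 -0.93 beside -0.86, ORC5 -1.19 beside -0.90, RPA3 -0.97 beside -0.63 and POLD2 -0.58 beside -0.46. On the higher side RFC3 had 1.15 beside 0.83, GMNN 0.70 beside 0.63, PCNA 0.54 beside 0.55 and ORC6 0.86 beside 0.45. Across the 43 genes Pearson's r between the 2 values was 0.743 (Spearman's rho 0.696) untreated and 0.760 (0.697) treated, and across the 37 genes off chromosomes 7 and 13 it was 0.509 and 0.546; genes are not independent replicates, and all points come from the same libraries. TK1 departed from its neighbours, at -0.86 beside 0.01 in treated cells, as did MCM4 at -0.61 untreated beside -0.003. ORC1 (-0.11 beside 0.49), GINS2 (0.56 beside -0.02) and LIG1 (-0.52 beside -0.03) departed untreated, and PRIM1 (-0.53 beside 0.04) treated. POLA1 on the X chromosome and POLD1 on chromosome 19 stayed near 0 untreated (-0.04 and -0.10) among neighbours at -1.14 and -0.81.

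**Figure D5:**
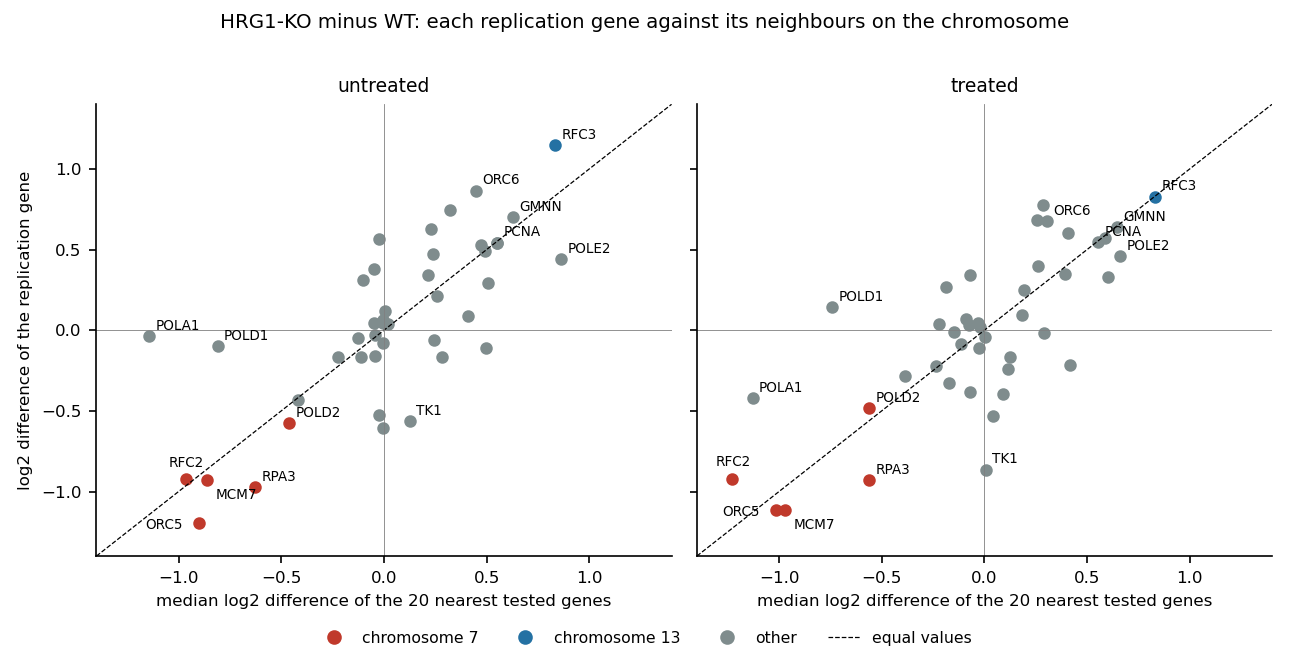
Log2 difference, HRG1-KO minus WT, of each of the 43 genes (vertical) against the median of its 20 nearest tested genes (horizontal), untreated (left) and treated (right); the dashed line marks equal values. The chromosome 7 genes (red) lie at the lower left, RFC3 on chromosome 13 (blue) at the upper right, and TK1 lies below its neighbours.

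Further genes of the same processes were examined beside them. Of 37 further fork and licensing genes 36 were tested, and butyrate changed 0 of them in WT and 1 in HRG1-KO, the clamp loader partner DSCC1, which fell by 0.87 on the log2 scale (edgeR adjusted p = 0.0380). Over all genes 2.35% and 3.4% passed. The medians of the 36 were -0.18 and -0.22, and the block gave 0 in WT and 1 higher and 3 lower in HRG1-KO. Between genotypes 1 was higher and 2 were lower untreated, and 2 were higher and 4 lower treated; the block gave 7 and 7, and 5 and 6. Over all genes 22.6% and 19% passed without the block. LRWD1, which binds ORC and is encoded on chromosome 7, was at -1.65 and -1.59 (edgeR adjusted p = 0.000236 and 0.000402). DBF4, the activator of the CDC7 kinase and also on chromosome 7, was at -1.04 in treated cells (edgeR adjusted p = 0.00973). RNASEH2B, a ribonuclease H2 subunit on chromosome 13, was at 0.96 and 0.84 (edgeR adjusted p = 0.0228 and 0.0473). The other genes of this list that passed between genotypes without the block are not named here. They were among the lower in both settings and the higher in treated cells, and none was placed on chromosome 7 or 13.

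Of 25 further genes of nucleotide supply, butyrate lowered 2 in WT, CTPS2 (-1.24), which makes CTP, and ATIC (-0.68) of purine synthesis, and 1 in HRG1-KO, ATIC (-0.74), with edgeR adjusted p-values of 0.0179, 0.0471 and 0.0288. The medians were -0.42 in WT and -0.45 in HRG1-KO, and the block gave 1 higher and 7 lower in WT, and 1 higher and 6 lower in HRG1-KO. Between genotypes 1 was higher and 1 lower untreated and 2 were higher and 0 lower treated, with 4 and 2, and 3 and 2, under the block. CTPS1, the other CTP synthase, was at 1.63 and 1.52 (edgeR adjusted p = 0.0190 and 0.0296). Of 19 E2F and pocket protein genes butyrate changed 0 in either genotype (edgeR; 1 and 2 at an unadjusted p under 0.05; 0 and 2 with the block). In HRG1-KO against WT, 3 of them were higher and 0 lower untreated, and 2 higher and 1 lower treated (with the block, 4 and 1, and 3 and 2). LIN52, a subunit of the complex that pairs with E2F4 and the pocket proteins, had the largest untreated difference at 1.07 (edgeR adjusted p = 0.0411), and stood at 0.99 treated (adjusted p = 0.0644). RB1, the retinoblastoma protein that restrains E2F and lies on chromosome 13, was higher at 1.02 untreated and 0.95 treated (edgeR adjusted p = 0.00304 and 0.00550), the histone chaperone RBBP4 was higher at 0.83 and 0.72 (0.0197 and 0.0419), and the pocket protein RBL1 was lower at -0.80 in treated cells (0.0296). Of 40 mitosis genes butyrate lowered 0 in WT and 4 in HRG1-KO, among them the spindle protein HMMR (-1.02) and the kinases TTK (-1.01) and AURKA (-0.86), with edgeR adjusted p-values of 0.0381, 0.0209 and 0.0375. Their medians were -0.18 and -0.47, and the block gave 2 lower in WT and 12 lower in HRG1-KO. Between genotypes 3 were higher and 0 lower untreated, and 1 higher and 4 lower treated (with the block, 3 and 1, and 2 and 5). The difference between genotypes in this response passed for 0 of 40 mitosis genes (edgeR; 2 at an unadjusted p under 0.05). As background to the counts of these lists, butyrate lowered 87 of all 15805 genes in WT and 94 in HRG1-KO (497 and 620 with the block). It raised 285 and 443 (864 and 1232 with the block). Between genotypes 11.7% of all genes were higher and 10.9% lower untreated, and 10.1% and 8.89% treated. With the block these shares were 16.9% and 16.1% untreated, and 15.6% and 13.6% treated.

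The counting step bears on some of these values, since its use of strand is not given in the sources used here. MCM7 shares 8.9% of its exon bases with AP4M1 on the opposite strand, and RPA3 shares 3.7% with its overlapping genes, so that reads there may be split or lost. ORC5, ORC6, POLD2, RFC2, RFC3 and TK1 share none with another gene. Overlap was largest for POLA2 (35.1%), MCM2 and GINS4 (23.6% each), PRIM1 (21.6%) and RRM2 (20.2%). Named pseudogenes exist for PCNA, RRM2, RPA2, POLD2, RFC3, RFC5 and FEN1, and their counts are the less certain for it.

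The calls between genotypes rested on few libraries. In untreated cells, leaving out any 1 library kept RPA3 past the threshold in 6 of 6 cases and RFC2 in 5 of 6, with RFC2 missing it at an adjusted p of 0.0583 (edgeR) once untreated WT replicate 2 was removed. ORC5, ORC6, POLD2 and RFC3 each stayed past it in 2 of 6. In treated cells RPA3 stayed in 5 of 6, RFC2 and TK1 in 4 of 6, and ORC5 and MCM7 in 3 of 6. The count of genes past the threshold in untreated cells fell from 6 to 3 without WT replicate 1, and to 2 without WT replicate 2 or without HRG1-KO replicate 2. In treated cells it fell from 5 to 3 without WT replicate 2, to 1 without HRG1-KO replicate 2 and to 2 without HRG1-KO replicate 3. For butyrate in WT it rose from 0 to 1, TK1, without treated WT replicate 1. No estimate of these genes changed sign in any of these fits.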

How the data were processed

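The deposited table holds whole-number counts per gene symbol for the 12 libraries, as the authors made it. FastQC 0.12.1, STAR 2.7.11b and build hg38 are named in the submitters' processing notes; the counting tool, annotation and strand setting are not given in the sources used here. Libraries held 19963594 to 30348538 counts, and 15805 of 28278 genes passed edgeR's filterByExpr with a minimum count of 10. Counts were scaled by TMM and fitted with edgeR 4.0.16 (quasi-likelihood, R 4.3.3), 1 mean per group over all 12 libraries, with Benjamini-Hochberg adjustment over all tested genes and a threshold of 0.05. CPM are TMM-scaled counts per 1000000; SEs and 95% intervals come from the fitted test. Gene positions and merged exon lengths were taken from GENCODE 29 (GRCh38), which placed 14809 tested symbols once, and promoters from RefSeq (GRCh38.p14). The pipeline was run on simulated counts drawn independently, with no effect of replicate number and no shift of whole chromosomes. That run therefore does not show how these features of the real libraries act on the calls. No 2 replicates were alike within sampling noise (smallest chi-square per degree of freedom 37.2).

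The titles number the replicates 1 to 3 in every group. Same-numbered libraries deviated together from their group means in every pair compared, with correlations of 0.195 to 0.409 (butyrate, WT), 0.147 to 0.468 (butyrate, HRG1-KO), 0.210 to 0.361 (genotype, untreated) and 0.315 to 0.595 (genotype, treated). Differently numbered libraries gave -0.4387 to 0.1865, -0.4413 to 0.1234, -0.2878 to 0.0692 and -0.5124 to 0.3425 in the same order. The deviations of the 3 libraries of a group sum to 0. Positive values for equal numbers therefore go with negative ones elsewhere, and this contrast is partly built in. In treated cells WT replicate 2 went with HRG1-KO replicate 3 (0.3425) as closely as with replicate 2 (0.315). Within WT, untreated replicate 2 went with treated replicate 3 (0.1865) nearly as closely as with treated replicate 2 (0.1951). The fit with the number as a block is given beside results it changes. What the number marks is not stated in the labels.

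The named genes are the 43 members, and, from the other lists, at most the 3 largest rises and falls past the threshold. The members and lists were chosen with earlier results of these data known. Alternatives were RLE factors, library size alone, DESeq2 1.42.0, 2 other filters, the compared groups alone, each library left out, and the 4 libraries numbered 1 set aside.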

Additional observations from a re-analysis of the deposited data

How the results depend on the processing

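The number of the 43 genes past the threshold was 0, 0, 6, 5 and 0 for butyrate in WT, butyrate in HRG1-KO, genotype untreated, genotype treated and the difference in response. The replicate block gave 1, 3, 13, 12 and 0, and changed no other call. DESeq2 gave 1 for butyrate in WT. Setting aside the 4 libraries numbered 1 gave 2 for butyrate in WT and 2 in HRG1-KO (RFC3 lower and TK1 higher in both), and 8 for genotype treated. Library size alone gave 8, and the compared groups alone 2, for genotype treated. Leaving out 1 library gave 0 to 1, 0 to 0, 2 to 8, 1 to 6 and 0 to 0. RLE factors and the other filters kept every count within 1.5 times. Over all genes, calls were 372, 537, 3574, 3009 and 0; the alternatives gave 63 to 1884, 304 to 2164, 2334 to 5217, 1802 to 4612 and 0 to 81, and leaving out 1 library 43 to 1243, 48 to 833, 2485 to 2844, 2014 to 3477 and 0 to 2. The cause of these differences was not tested. No estimate of a named member that was called changed sign under any alternative. With 3 libraries a group, the SEs of the 43 genes, 0.16 to 0.43 on the log2 scale in the first 4 comparisons and 0.22 to 0.61 for the difference in response, limit the differences that can be seen, not depth.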
